A study of Mus musculus with 8 samples.

Results

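PD-L1 (Cd274) and 7 other ligands and enzymes through which tumour cells restrain immune cells were followed in 4T1 cells. The 8 genes, chosen by name from among 54532 listed genes, were Cd274, Pdcd1lg2, Cd80, Cd276, Lgals9, Pvr, Cd47 and Nt5e. 4T1 is a mouse triple-negative breast cancer line from a BALB/c mammary tumour, and its cultures were profiled by RNA sequencing in 4 groups of 2 libraries. The groups were scramble + IgG, scramble + anti-IL6R, shMCT-1 + IgG and shMCT-1 + anti-IL6R. Scramble cells (genotype labelled negative control) carried a control hairpin, and shMCT-1 cells (labelled MCT-1 knockdown) a hairpin against MCT-1, the product of Mcts1, which assists translation re-initiation. Every group was kept under puromycin, and whether either line was a clone or a pool is not given in the sources used here. The anti-IL6R groups received 100 ng/ml of an antibody against mouse IL-6R for 48 h, and the IgG groups were labelled as treated with IgG, for which no amount is given. Nothing says that the 2 libraries of a group came from separate cultures, so p-values measure the spread between libraries, which may be technical.

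Checkpoint ligands sit on the surface of tumour and antigen-presenting cells and engage receptors that dampen T cells, natural killer cells or macrophages. PD-L1 and PD-L2 bind PD-1 on T cells, CD80 binds CD28 and CTLA-4, CD155 (Pvr) binds TIGIT, CD96 and CD226, galectin-9 is described as a ligand of TIM-3, and CD47 binds SIRPα on macrophages to prevent engulfment. CD73 (Nt5e) acts through a product: it converts extracellular AMP to adenosine. PD-L1 is induced by interferon-γ through JAK kinases and IRF1, and IL-6 signals through its receptor and gp130 (Il6st) to JAK1 and STAT3.

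The 8 libraries held 19839299 to 33063570 counts, so that 1 CPM (a library's counts scaled to the same total) stood for 19.8 to 33.1 counts, and the 4 scramble libraries were all deeper than the 4 shMCT-1 libraries. The silenced gene followed the labels. Mcts1 was at 13.6 ± 2.50 and 13.2 ± 0.465 CPM in scramble + IgG and scramble + anti-IL6R and at 6.25 ± 0.0935 and 5.81 ± 1.26 CPM in the matching shMCT-1 groups (mean ± SD, n = 2), and across treatments it fell by 1.10 on the log2 scale (SE 0.12). Of 8 mammary epithelial and carcinoma markers, 7 were above 1 CPM, with a summed level of 2391 to 2545 CPM in scramble and 3238 to 3508 CPM in shMCT-1 libraries, and Krt5 was at 0. None of 12 leukocyte markers reached 1 CPM in any library. Their sum was 1.34 to 1.70 CPM in scramble and 0.655 to 1.02 CPM in shMCT-1 libraries, and Cd3e, Cd8a, Ms4a1, Adgre1 and Klrb1c had no counts, so the values below were measured where T cell, B cell and macrophage markers were at or near 0. Among the epithelial markers, 6 of the 7 tested rose across treatments, where 35% of all genes tested rose. The largest rises were those of Cldn4 (log2 fold change 3.81, SE 0.08, adjusted p = 3.53e-10), Epcam (3.60, SE 0.09, adjusted p = 6.33e-10) and Krt7 (0.86, SE 0.06, adjusted p = 4.06e-07). Of 5 fibroblast markers, Pdgfra stood at 10.9 to 16.7 CPM and was not called, whereas Col1a1 rose from means of 0.361 and 0.482 CPM in the scramble groups to 1.22 and 1.40 CPM in the shMCT-1 groups (log2 fold change 1.66, SE 0.28, adjusted p = 0.000311). Of 4 endothelial markers, 1 was tested, Cdh5, with means of 0.0622 and 0 CPM in the scramble groups and 0.887 and 0.955 CPM in the shMCT-1 groups (adjusted p = 0.000189). The pair of shMCT-1 + anti-IL6R libraries was widely spread for Cdh5 (SD 0.709 CPM). Col1a1 and Cdh5 entered the test only through shMCT-1 libraries, where they were high, so their adjusted p-values are no independent support for a rise. The part of these marker differences in the results below was not tested.

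The 8 genes spanned a wide range of levels per length, given as CPM per kilobase of annotated exon. Cd276 was highest with a mean of 22.6 CPM per kb over the 8 libraries, and was followed by Cd47 at 18.7, Pvr at 12.2, Nt5e at 9.44 and Lgals9 at 4.33 CPM per kb. Cd274 followed far below at 0.189 CPM per kb, Cd80 at 0.0163 and Pdcd1lg2 at 0. The ranges of Cd276 (19.7 to 26.9 CPM per kb) and Cd47 (16.6 to 21.1) overlapped, although Cd276 was the higher of the pair within each of the 8 libraries. Cd47 and Pvr, Pvr and Nt5e, and Lgals9 and Cd274 did not overlap. Nt5e exceeded Lgals9 by 4.95 to 5.41 times in scramble libraries but only by 0.934 to 1.54 times in shMCT-1 libraries, and in 1 shMCT-1 + anti-IL6R library Lgals9 was the higher. Summed over the 8 genes, the level was 62.2 to 63.6 CPM per kb in scramble and 68.8 to 75.2 CPM per kb in shMCT-1 libraries. Of that sum, Lgals9 made up 2.93 to 3.34% in scramble and 7.96 to 10.8% in shMCT-1 libraries, whereas Nt5e made up 15.9 to 17.4% and 10.1 to 12.5%. Cd274 contributed at most 0.501% in any library.

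**Figure D1:**
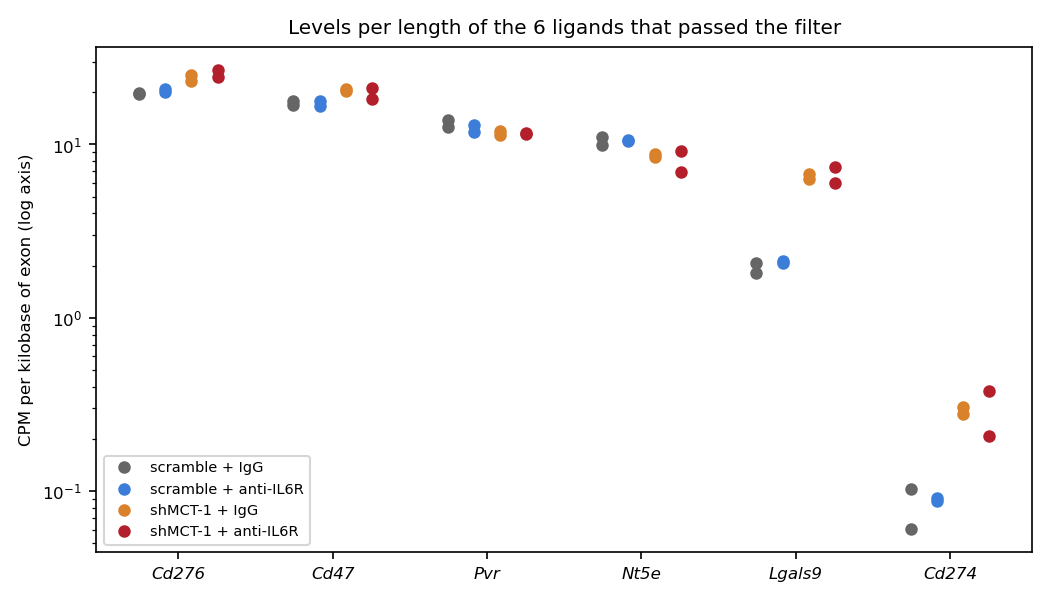
Each point is 1 library, coloured by group, and the vertical log axis gives CPM per kilobase of exon for the 6 ligands that passed the filter on low counts. Cd276, Cd47, Pvr and Nt5e lie close together near the top, Lgals9 lies lower in scramble than in shMCT-1 libraries, and Cd274 lies between 0.0602 and 0.377 CPM per kb.

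Differences were tested with edgeR's quasi-likelihood test on the 12704 genes that exceeded 1 CPM in 2 or more libraries. Calls were made at an adjusted p under 0.05 (Benjamini-Hochberg over those genes). Of the 8 genes, 6 entered the fit, while Cd80 and Pdcd1lg2 were too low. Across both treatments, 4 of the 6 rose in shMCT-1 cells (Cd274, Lgals9, Cd276 and Cd47), where 35% of the genes tested rose, and 1 fell (Nt5e), where 34% fell. Within IgG, the same 4 rose against 28.3% of the genes tested and none fell against 26.2%. Within anti-IL6R, those 4 rose against 26.9% and Nt5e fell against 27.3%. With so many genes changed, these counts are read only as a description of the single genes. Cd274 entered the test only through shMCT-1 libraries, where it was high, so its calls are no independent support for a rise. In bulk RNA, fewer cells expressing a gene and less RNA per cell cannot be told apart.

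**Figure D2:**
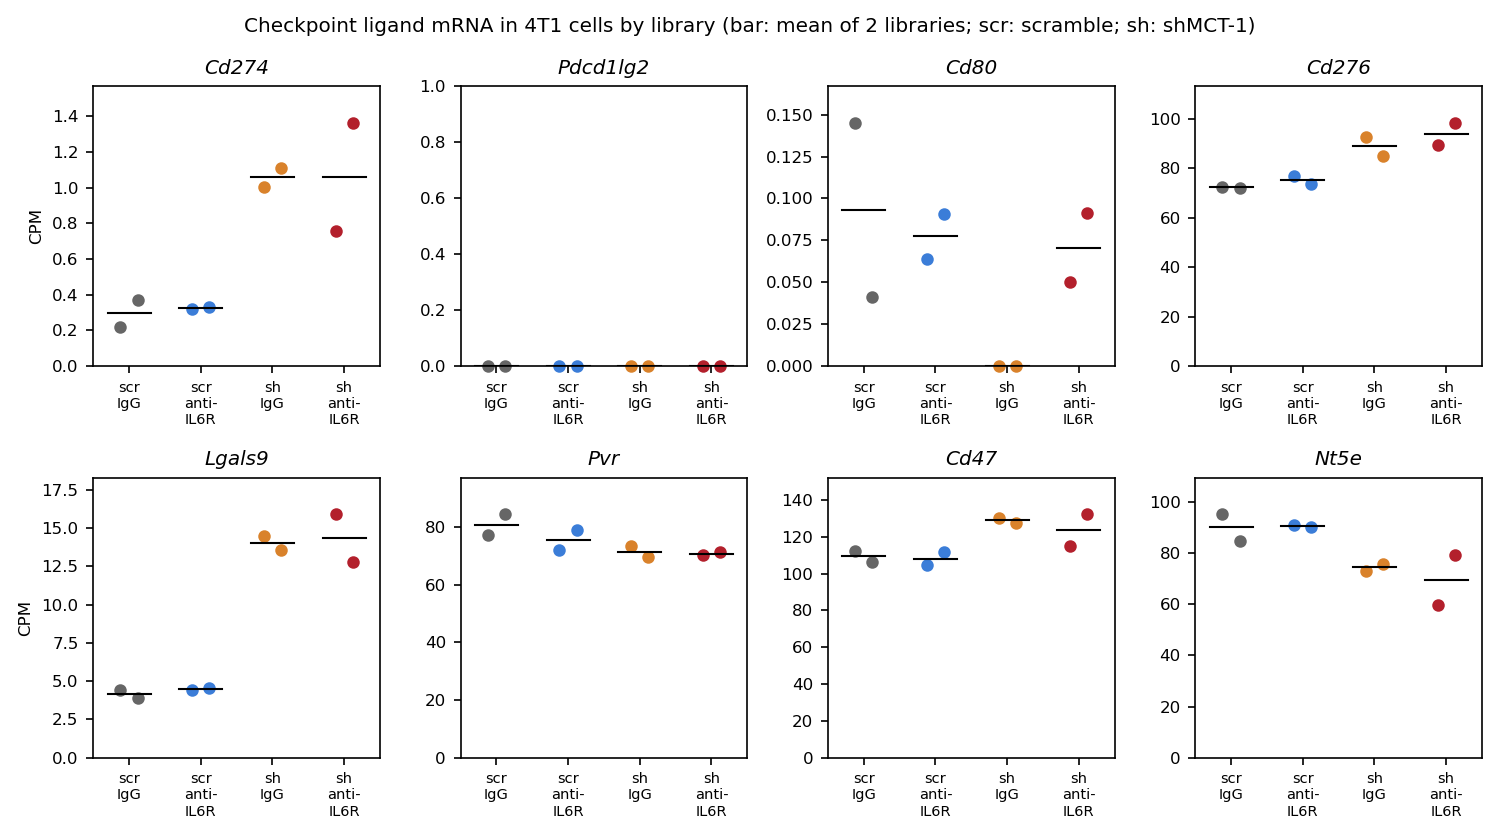
Each panel shows 1 gene, with CPM on a vertical axis from 0, a point per library and a bar at the mean of the 2 libraries of a group (scr, scramble; sh, shMCT-1). The shMCT-1 libraries lie above the scramble libraries for Cd274, Lgals9, Cd276 and Cd47 and below them for Nt5e, the Pvr libraries overlap, Cd80 has 0 to 4 counts and Pdcd1lg2 has none.

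Cd274 encodes PD-L1 (ENSMUSG00000016496.7, GRCm38 chr19:29367455-29388095, plus strand). Its expected counts were 6 and 9 in scramble + IgG, 10 and 11 in scramble + anti-IL6R, 22 and 26 in shMCT-1 + IgG, and 15 and 30 in shMCT-1 + anti-IL6R. As CPM these were 0.218 and 0.373, 0.320 and 0.333, 1.01 and 1.11, and 0.756 and 1.37. The 4 shMCT-1 libraries were all above the 4 scramble libraries, and the pair of shMCT-1 + anti-IL6R libraries was the most spread. Cd274 mRNA was 3.51-fold higher in shMCT-1 cells across treatments (log2 fold change 1.81, SE 0.31, 95% CI 1.14 to 2.49, adjusted p = 0.000335). Within IgG the log2 fold change was 1.88 (SE 0.47, adjusted p = 0.00698), and within anti-IL6R it was 1.75 (SE 0.44, adjusted p = 0.00796). Without scramble + anti-IL6R replicate 2, or without shMCT-1 + anti-IL6R replicate 2, the within-anti-IL6R value was 1.77 or 1.27 and was no longer called (adjusted p = 0.05002 and 0.0655). Cd274 passed the filter only through its shMCT-1 libraries, where it was high, so its adjusted p-values are no independent support for a rise. With no filter on low counts, its log2 fold change across treatments was 1.82 (adjusted p = 5.37e-06), from the same 8 libraries. A transcript annotated on the opposite strand, AC119228.1, shares 511 exon bases with Cd274 and was not in the count table, and whether the counting used strand is not given in the sources used here.

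The sequence before the Cd274 start is shown because Cd274 and Lgals9 rose most and PD-L1 is known as a target of interferon regulatory factors (IRFs). It covers 250 bases before to 50 after the RefSeq start (GRCm38.p6, chr19:29367188-29367487, plus strand), with a match to the IRF core in capitals.
Cd274: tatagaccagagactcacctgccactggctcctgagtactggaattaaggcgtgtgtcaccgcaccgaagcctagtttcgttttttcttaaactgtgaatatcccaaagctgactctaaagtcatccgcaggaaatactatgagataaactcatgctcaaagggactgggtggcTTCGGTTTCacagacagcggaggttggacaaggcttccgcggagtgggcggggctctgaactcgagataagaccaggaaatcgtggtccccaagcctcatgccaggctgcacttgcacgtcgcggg
Promoters were found for 7 of the 8 genes in the RefSeq table. Both strands were searched for a STAT motif (TTCNNNGAA), an IRF core (GAAANNGAA), the NF-kB consensus and an E-box (CACGTG). Cd274 held 1 IRF core, 76 to 68 bases before the start on the minus strand, and no match to the other motifs. An IRF core was present in 8.56% of 32841 promoters of the same length, a STAT motif in 8.30%, the NF-kB consensus in 4.51% and an E-box in 7.15%. Pdcd1lg2 held 1 NF-kB consensus match, and no match lay in the windows of Cd276, Cd80, Cd47 or Nt5e. The windows of Cd276, Cd47 and Nt5e were rich in G and C (71.0 to 78.3%, with 23 to 39 CG pairs), against a median of 52.7% and 7 CG pairs over all promoters, and Cd274 had 52.7% and 15 CG pairs. A match is a run of letters and no evidence of binding.

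Pdcd1lg2, the PD-L2 gene next to Cd274 (ENSMUSG00000016498.9, chr19:29410919-29471161, plus strand), had 0 counts in each of the 8 libraries. A count of 0 allows up to 3 counts, or 0.0907 to 0.151 CPM depending on the library. This limit covers counting error only. PD-L1 was therefore the only PD-1 ligand with counts in these cultures.

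Cd80 (ENSMUSG00000075122.5, chr16:38455561-38496335, plus strand), a B7 ligand that costimulates through CD28 and inhibits through CTLA-4, had 4 and 1 counts in scramble + IgG, 2 and 3 in scramble + anti-IL6R, 0 and 0 in shMCT-1 + IgG, and 1 and 2 in shMCT-1 + anti-IL6R. Only 1 of the 8 libraries was above 3 counts, and the groups overlapped apart from the shMCT-1 + IgG libraries at 0. Exact two-sided permutation tests of the CPM over libraries gave p = 0.200 for shMCT-1 against scramble and p = 0.486 for anti-IL6R against IgG, where the smallest p the design allows is 0.0286. No difference was detectable at this depth.

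Cd276 encodes B7-H3, a B7 family member with an inhibitory role in many tumours (ENSMUSG00000035914.11, chr9:58524298-58555437, minus strand). It was at 72.4 and 71.9 CPM in scramble + IgG, 76.9 and 73.6 in scramble + anti-IL6R, 92.6 and 84.9 in shMCT-1 + IgG, and 89.3 and 98.4 in shMCT-1 + anti-IL6R. Every shMCT-1 library lay above every scramble library, by a small step. Cd276 was 1.28-fold higher in shMCT-1 cells across treatments (log2 fold change 0.36, SE 0.06, adjusted p = 0.000229), with 0.34 within IgG and 0.37 within anti-IL6R. It was no longer called within IgG without shMCT-1 + IgG replicate 1 (0.28, adjusted p = 0.0825) or within anti-IL6R without scramble + anti-IL6R replicate 2 (0.34, adjusted p = 0.0669). The opposite-strand gene Gm10657 shares 416 exon bases with it and had a mean of 7.90 counts.

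Lgals9 encodes galectin-9, a secreted and surface lectin (ENSMUSG00000001123.15, chr11:78962974-78984946, minus strand). It was at 4.43 and 3.90 CPM in scramble + IgG, 4.42 and 4.54 in scramble + anti-IL6R, 14.5 and 13.6 in shMCT-1 + IgG, and 15.9 and 12.8 in shMCT-1 + anti-IL6R. The lowest shMCT-1 library was well above the highest scramble library. Lgals9 was 3.39-fold higher in shMCT-1 cells across treatments (log2 fold change 1.76, SE 0.10, adjusted p = 1.86e-07), with 1.79 within IgG and 1.74 within anti-IL6R, and leaving out any single library kept the value across treatments between 1.70 and 1.83. Its fold change was close to that of Cd274 but rested on 94 to 318 counts per library, against 6 to 30 for Cd274. Background, meaning scramble or shMCT-1, took 98.7% of the variation in log2 CPM of Lgals9 and 90.3% of that of Cd274 over the 8 libraries.

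The Lgals9 window (GRCm38.p6, chr11:78984875-78985174, minus strand, written along the gene) is shown beside that of Cd274 because these were the only windows of the 7 with a match to the IRF core, in capitals as above.
Lgals9: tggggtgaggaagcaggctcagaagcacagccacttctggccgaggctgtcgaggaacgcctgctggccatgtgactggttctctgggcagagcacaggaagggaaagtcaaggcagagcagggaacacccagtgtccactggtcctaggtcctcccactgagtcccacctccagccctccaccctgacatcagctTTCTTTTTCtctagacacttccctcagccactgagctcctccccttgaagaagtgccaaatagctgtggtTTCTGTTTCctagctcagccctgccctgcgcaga
It held 2 IRF cores, 54 to 46 bases before and 16 to 24 bases after the RefSeq start, and no match to the other 3 motifs. Since 8.56% of promoters hold such a core, nothing is read from the coincidence in 2 genes.

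Pvr encodes CD155 (ENSMUSG00000040511.14, chr7:19903578-19921160, minus strand). It was at 77.1 and 84.5 CPM in scramble + IgG, 72.0 and 79.0 in scramble + anti-IL6R, 73.2 and 69.6 in shMCT-1 + IgG, and 70.2 and 71.3 in shMCT-1 + anti-IL6R. The backgrounds overlapped, and 48.0% of the variation lay between replicates. Its log2 fold change across treatments was -0.09 (SE 0.06, 95% CI -0.22 to 0.05, adjusted p = 0.227), an interval that leaves out a change as large as that of Cd276 or Nt5e.

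Cd47, the signal that holds back macrophages (ENSMUSG00000055447.19, chr16:49800533-49915010, plus strand), was at 112 and 106 CPM in scramble + IgG, 104 and 112 in scramble + anti-IL6R, 130 and 128 in shMCT-1 + IgG, and 115 and 132 in shMCT-1 + anti-IL6R. The backgrounds did not overlap, although the lowest shMCT-1 library was close to the highest scramble libraries. Cd47 was 1.20-fold higher in shMCT-1 cells across treatments (log2 fold change 0.26, SE 0.06, adjusted p = 0.00194). Within IgG the log2 fold change was 0.28 (adjusted p = 0.0236), and within anti-IL6R 0.25 (adjusted p = 0.0382). Both calls were lost when libraries were scaled by their totals alone (0.24 and 0.19, adjusted p = 0.0540 and 0.105), and within anti-IL6R also with no filter (adjusted p = 0.0658) and by edgeR's exact test (adjusted p = 0.0664). Of the 8 single-library omissions, 4 and 5 also ended them (adjusted p up to 0.113 and 0.231).

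Nt5e encodes CD73 (ENSMUSG00000032420.8, chr9:88327197-88372092, plus strand). It was at 95.4 and 84.9 CPM in scramble + IgG, 90.9 and 90.3 in scramble + anti-IL6R, 73.0 and 75.9 in shMCT-1 + IgG, and 59.9 and 79.2 in shMCT-1 + anti-IL6R. Every shMCT-1 library lay below every scramble library, and shMCT-1 + anti-IL6R replicate 1 was the lowest. Nt5e was the 1 member that fell, by 0.28 on the log2 scale across treatments (SE 0.08, 95% CI -0.46 to -0.10, adjusted p = 0.00964). Within anti-IL6R it fell by 0.33 (adjusted p = 0.0424), and within IgG the value was -0.23 (adjusted p = 0.125). The within-anti-IL6R call was lost with the filter of filterByExpr (adjusted p = 0.0554) and by edgeR's exact test (adjusted p = 0.0528). It was also lost in 5 of the 8 single-library omissions, with a value of -0.13 (adjusted p = 0.270) without shMCT-1 + anti-IL6R replicate 1.

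The antibody was the second question of the design. In scramble cells, in shMCT-1 cells, in the interaction (the difference between those effects) and across both backgrounds, 0 of the 6 tested ligands and 0% of the 12704 genes were called by edgeR. At an unadjusted p under 0.05, 0 of the 6 ligands and 166, 505, 315 and 355 genes passed, and DESeq2 called 0, 11, 6 and 1 genes, none of them among the 8. edgeR's exact test on the 4 libraries of a background called 10 genes in scramble and 14 in shMCT-1 cells, again none of the 8. With no filter on low counts, edgeR called 64, 133, 97 and 73 genes in these 4 comparisons, and none of the 8. Across both backgrounds the log2 difference, anti-IL6R minus IgG, was 0.07 for Cd276 (95% CI -0.06 to 0.20), -0.04 for Cd47 (-0.17 to 0.09), -0.05 for Nt5e (-0.22 to 0.13), -0.06 for Pvr (-0.19 to 0.08) and 0.06 for Lgals9 (-0.16 to 0.28). For Cd274 it was 0.07 with the wider interval of -0.60 to 0.73. In scramble cells alone the Cd274 interval ran from -1.02 to 1.32, and in shMCT-1 cells from -0.87 to 0.90, so a change of Cd274 by the antibody of up to these sizes was not detectable at its counts. The interaction estimate for Cd274 was -0.13 (95% CI -1.60 to 1.33).

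**Figure D3:**
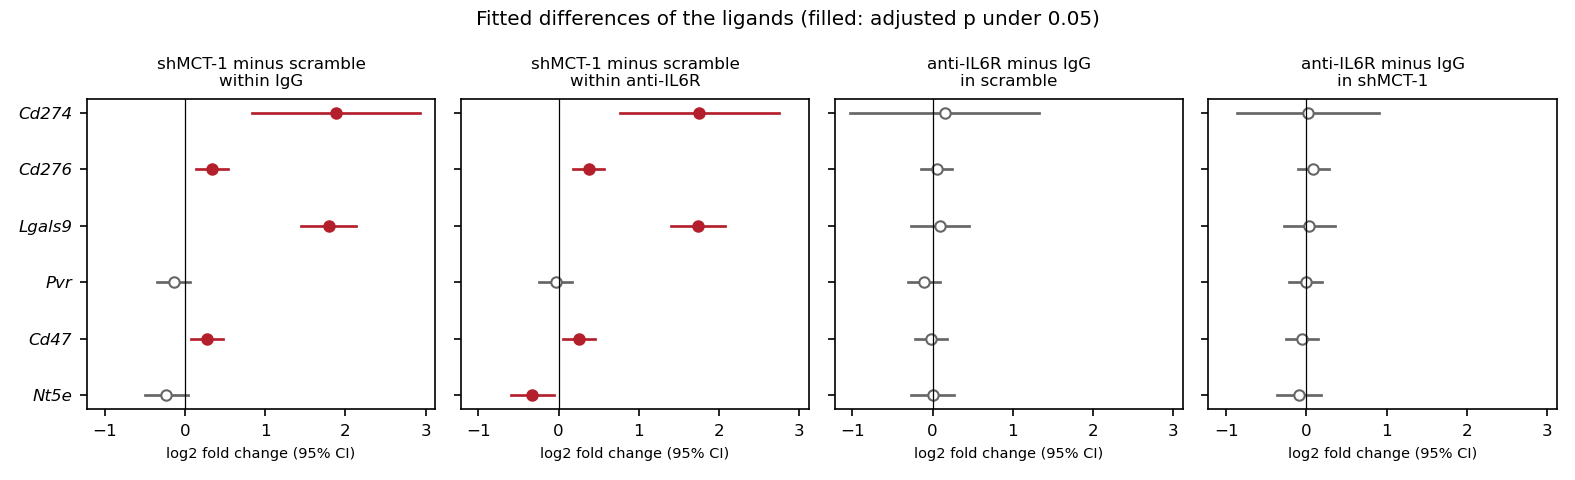
Each panel is 1 comparison, with a point at the log2 fold change and a line for its 95% confidence interval, filled red where the adjusted p was under 0.05. The 2 left panels place Cd274 and Lgals9 near 1.8 with a wider interval for Cd274, and in the 2 right panels all 6 antibody intervals include 0.

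The receptors and partners of these ligands were mostly below the filter in the same cultures. Of 15 receptors and binding partners, 4 were tested, and across treatments 2 rose and 1 fell (35% and 34% of all genes tested). Pdcd1, Cd226 and Cd96 had 0 counts in all libraries. Tigit, the inhibitory receptor of CD155, was at 38.5 to 55.9 CPM with Cd3e and Cd8a at 0 and Cd4 at most 0.0415 CPM, and fell by 0.20 on the log2 scale (SE 0.08, adjusted p = 0.0437). Havcr2, which encodes TIM-3, rose from means of 4.65 and 3.51 CPM in scramble + IgG and scramble + anti-IL6R to 6.96 and 6.27 CPM in the shMCT-1 groups (log2 fold change 0.76, SE 0.16, adjusted p = 0.00178). Thbs1, which encodes the CD47-binding protein thrombospondin-1, rose by 0.45 (SE 0.08, adjusted p = 0.000368). Within IgG and within anti-IL6R, Havcr2 and Thbs1 were higher and no receptor was lower. Of all genes tested, 28.3% were higher and 26.2% lower within IgG, and 26.9% and 27.3% within anti-IL6R.

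Among 23 other B7, nectin, galectin and related ligands, not all of them inhibitory, 15 were tested. Across treatments 9 rose and 5 fell (35% and 34% of all genes tested). The median log2 fold change was 0.57 against 0.01 over all genes tested. Within IgG, 9 rose and 2 fell (28.3% and 26.2% of all genes tested), and within anti-IL6R, 9 rose and 5 fell (26.9% and 27.3%). Of the 9 that rose across treatments, 4 were H2-K1, H2-D1, B2m and Calr, named after their values were seen. The first 3 encode parts of MHC class I, which inhibits natural killer cells but also presents antigen, and surface calreticulin is known as a signal for engulfment. With these 4 set aside, a choice also made after seeing the data, 5 rose and 5 fell of 11 tested, with a median of 0.14. The 3 largest changes among those with a mean of at least 1 CPM were rises of Icosl, the ICOS ligand (1.10, SE 0.19, adjusted p = 0.000360), of Nectin2 or CD112, a relative of CD155 (1.08, SE 0.08, adjusted p = 6.96e-07), and of Cd24a (0.89, SE 0.06, adjusted p = 3.44e-07). Nectin2 went from means of 14.5 and 15.7 CPM in the scramble groups to 30.7 and 31.3 CPM in the shMCT-1 groups. The 5 that fell, named after their values were seen, were Vsir (VISTA), Ceacam1, Lgals8, H2-T23 and Lgals3. Vsir and Ceacam1 had means under 1 CPM and passed the filter only through scramble libraries, where they were high. Their calls are no independent support for a fall. Of 15 activating and costimulatory ligands, 6 were tested, and 2 rose and 3 fell across treatments (35% and 34% of all genes tested), with a median of -0.05. The rises and the falls each include a gene with a mean under 1 CPM that passed the filter only through the background where it was high. Their calls are no independent support for a change. H60b (-0.89, SE 0.20, adjusted p = 0.00229) and Ulbp1 (-0.47, SE 0.10, adjusted p = 0.00150), which encode ligands of the activating receptor NKG2D, fell, and Tnfsf9, the 4-1BB ligand, rose by 0.61 (SE 0.11, adjusted p = 0.000652). The numbers within IgG were 2 higher and 2 lower (28.3% and 26.2% of all genes tested), and within anti-IL6R 2 higher and 3 lower (26.9% and 27.3%).

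Around Nt5e, 7 of 16 genes of extracellular adenosine formation and removal were tested, and 4 rose and 1 fell across treatments and within each treatment, with a median of 0.38 across treatments. Of all genes tested, 35% rose and 34% fell across treatments, 28.3% and 26.2% within IgG, and 26.9% and 27.3% within anti-IL6R. Entpd1, which encodes the main ATP-hydrolysing enzyme upstream of CD73, had at most 0.0915 CPM. Entpd3, a relative of it, rose by 2.01 (SE 0.16, adjusted p = 1.99e-06), from means of 1.64 and 1.72 CPM in the scramble groups to 6.50 and 6.62 CPM in the shMCT-1 groups. Pnp, which breaks down inosine, rose by 0.94 (SE 0.11, adjusted p = 2.30e-05), and Ada, which deaminates adenosine, fell by 0.79 (SE 0.07, adjusted p = 4.86e-06). Cd38, added after its values were seen, is among the 4 that rose. It had 0 counts in the scramble libraries and means of 1.34 and 1.36 CPM in the shMCT-1 groups. As Cd38 passed the filter only through shMCT-1 libraries, where it was high, its calls are no independent support for a rise. For Cd47, the enzyme that matures its SIRPα-binding end, Qpctl, was at 11.5 to 14.5 CPM and had a log2 fold change of 0.05 (SE 0.09, adjusted p = 0.635), and Qpct had 0 counts.

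Of 22 genes known to act on PD-L1 transcription, inducers and inhibitors such as Socs1, Socs3 and Irf2 together, 21 were tested. Across treatments 2 rose and 10 fell (35% and 34% of all genes tested), with a median of -0.20. Within IgG 1 rose and 9 fell (28.3% and 26.2% of all genes), and within anti-IL6R 2 rose and 7 fell (26.9% and 27.3%). The 3 largest changes were falls of Il6st (log2 fold change -1.48, SE 0.08, adjusted p = 1.72e-07), Il6ra (-1.177, SE 0.12, adjusted p = 8.44e-06) and Jak1 (-0.92, SE 0.07, adjusted p = 1.37e-06). Il6st, which encodes gp130, went from means of 226 and 234 CPM in scramble + IgG and scramble + anti-IL6R to 79.6 and 79.9 CPM in the matching shMCT-1 groups. Irf1, which encodes an interferon-induced factor, was among those that rose (0.23, SE 0.06, adjusted p = 0.00543) and was named after its values were seen. Tyk2, not called, was called lower under the 2 other scalings (adjusted p = 0.0465 and 0.0285). No list gene was called for the antibody or the interaction by edgeR, with at most 1 gene per list at an unadjusted p under 0.05, and for DESeq2 the lists were not counted.

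Of 16 genes known to act on the PD-L1 protein, 16 were tested, and 6 rose and 5 fell across treatments (35% and 34% of all genes tested), with a median of 0.07. Within IgG 5 rose and 1 fell (28.3% and 26.2% of all genes), and within anti-IL6R 3 rose and 2 fell (26.9% and 27.3%). Hip1r, which sends PD-L1 to lysosomes, rose by 0.59 (SE 0.07, adjusted p = 2.48e-05). Stt3a, a catalytic subunit of the glycosylating complex, rose by 0.53 (SE 0.06, adjusted p = 3.00e-05), and Gsk3b, a kinase that marks PD-L1 for degradation, fell by 0.49 (SE 0.08, adjusted p = 0.000218). Cmtm6, which stabilises PD-L1 at the surface, was at 30.7 to 33.8 CPM and was not called (0.07, SE 0.06, adjusted p = 0.308). The rises of Cops5 and Stt3b did not hold with library totals alone (adjusted p = 0.0818 and 0.233). The PD-L1 protein was not measured in these libraries.

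**Figure D4:**
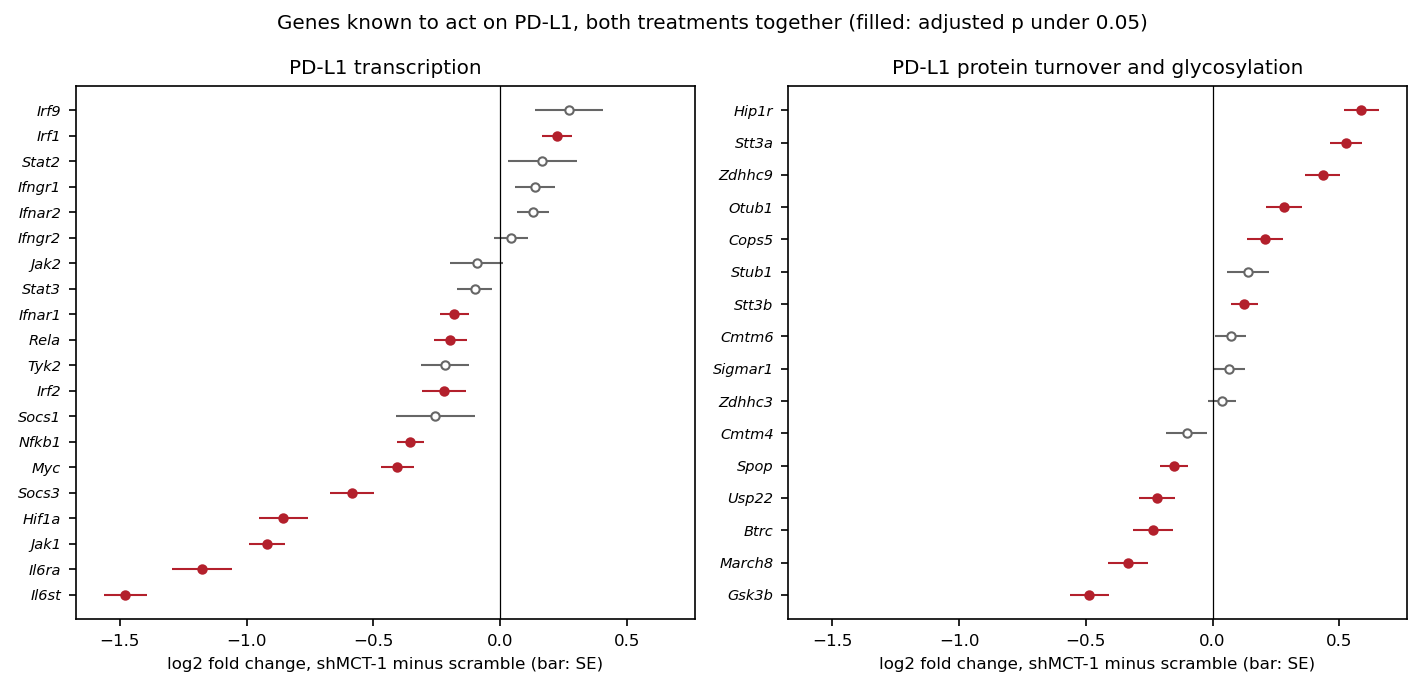
Points give the log2 fold change of shMCT-1 minus scramble across treatments with a bar of 1 SE for tested genes of PD-L1 transcription (left, without 1 gene that is not reported here) and the 16 of PD-L1 protein turnover and glycosylation (right), filled where the adjusted p was under 0.05. Il6st, Il6ra and Jak1 lie lowest on the left, and the right panel is spread on both sides of 0.

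The genes around Cd274 moved in both directions. Within 1 Mb, 14 other genes were tested, of which 5 rose and 5 fell across treatments, where 36.3% and 27.6% of the other genes tested on chromosome 19 did. The log2 fold changes of the 14 ran from -1.05 to 1.50. The nearest, Plgrkt, has its start at -0.065 kb from that of Cd274 on the opposite strand and rose by 0.95 (SE 0.09, adjusted p = 4.69e-06). Insl6 rose by 1.50 (SE 0.18, adjusted p = 2.39e-05), and Jak2, between them and the rising Rcl1 and Ak3, was at -0.09 (SE 0.11, adjusted p = 0.453). On chromosome 19, the median of the 421 other genes tested was 0.06. Around Cd47, 4 of 5 tested neighbours fell and 1 rose, where 32.7% and 35.3% of the other genes tested on chromosome 16 did. Around Lgals9, 20 of 34 rose and 7 fell, where 45.2% and 22.5% of those on chromosome 11 did.

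**Figure D5:**
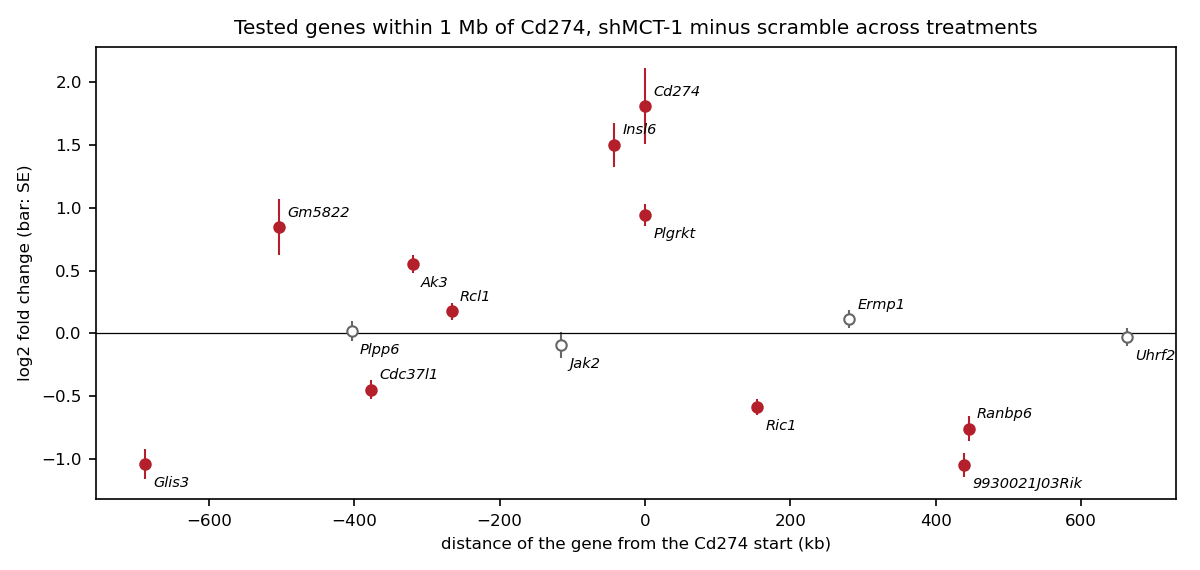
The horizontal axis is the distance in kb of each tested gene's start from the Cd274 start and the vertical axis its log2 fold change, shMCT-1 minus scramble across treatments, with a bar of 1 SE, filled where the adjusted p was under 0.05. Cd274, Insl6 and Plgrkt lie above 0 near the centre, and Ric1, Ranbp6 and 9930021J03Rik lie below it on the right.

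Likeness was measured as the root mean square difference of log2 CPM over the 8 libraries, after each gene was centred on its own mean, among 9896 or 9897 genes with a mean of at least 5 CPM. The genes nearest to Cd274 were Samd9l (0.16), Alcam (0.17) and Zfp862-ps (0.17). Their log2 fold changes across treatments were 1.52, 1.59 and 1.50, against 1.81 for Cd274. The log2 CPM used here carried a prior count of 2, which shrinks differences most at low counts such as those of Cd274. For scale, the SD of Cd274 itself was 0.89. The nearest gene was Spry1 for Lgals9 (0.06), Plxnb2 for Cd276 (0.02), Tns2 for Cd47 (0.02), Dcbld2 for Nt5e (0.04) and Srrt for Pvr (0.03). The 8 libraries share their 2 cell backgrounds, which dominate these patterns, and the values are descriptions without a test.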

How the data were processed

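RNA of cultured 4T1 cells was sequenced in 8 libraries, in 4 groups of 2. Per the study's methods and the submitters' processing notes, cutadapt 1.18 trimmed the reads, STAR 2.7.0d mapped them to mm10 and RSEM quantified them on GENCODE M19. The authors deposited expected counts of 54532 genes per library, made by RSEM and not normalized. Of the values above 0, 29.6% were not whole. These were rounded for testing. Coordinates are from GENCODE M21 (GRCm38), in which 54409 identifiers were found. Promoters are from RefSeq (GRCm38.p6).

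Genes over 1 CPM in at least 2 libraries (12704) were fitted in edgeR 4.0.16 (R 4.3.3) with TMM scaling and quasi-likelihood tests. The 4 group means gave the comparisons within treatment or background and the interaction. An additive model gave those across treatments and across backgrounds. SEs come from each log2 fold change and its F statistic, and CPM were computed from library totals. Cd80 and Pdcd1lg2 had an exact permutation test over libraries.

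The scripts were tested on simulated data. Alternatives were RLE scaling, library totals only, no filter, edgeR's filterByExpr, a replicate block, DESeq2 1.42.0, edgeR's exact test on 4 libraries and leaving out each library. No 2 libraries of a group matched within sampling noise. The 8 genes and the lists of partner genes and markers were chosen with earlier results of these data known. Named were the 8 genes, Mcts1, the 3 largest called changes across treatments (mean at least 1 CPM) of each list, the 3 genes nearest to Cd274 and the nearest to each other tested ligand. Most genes added after their values were seen are given as such. Col1a1, Cdh5, Tyk2, Cops5 and Stt3b lie outside this rule and were also named with their values known. Some list genes enter the counts but are not reported here by name.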

Additional observations from a re-analysis of the deposited data

How the results depend on the processing

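Across treatments, 5 ligands were called in the reported fit and in every alternative run, including leaving out each library. Within IgG the number was 4 and ran from 2 to 5 with 1 library left out. Within anti-IL6R it was 5, 3 by an exact test in edgeR restricted to those 4 libraries, 4 with library totals (Cd47 lost), with no filter (Cd47 lost) and with filterByExpr (Nt5e lost), and 1 to 5 with 1 library left out (1 without scramble + anti-IL6R replicate 2). Without scramble + anti-IL6R replicate 2, fewer genes were also called within anti-IL6R over all genes tested, and not only among the ligands. The cause was not tested. Within IgG the number was 3 with library totals alone (Cd47 lost). For the antibody and the interaction the number was 0 in every alternative run. Where leaving out 1 library of a pair left a lone sample, that sample was assumed to vary like the other groups. The replicate numbers did not pair the libraries (correlations of same-numbered deviations -0.08 to 0.11), and a replicate block called 4, 5, 0, 0, 0, 5 and 0 ligands, as the reported fit did, and turned the antibody value of Cd274 in shMCT-1 cells to -0.0132.

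Values near 0 changed sign as follows, on the log2 scale, with none called. For the antibody in scramble cells, Nt5e (reported -0.0004) was 0.0002 with RLE scaling and with DESeq2, 0.0071 with library totals and 0.0239 with no filter. In shMCT-1 cells, Pvr (-0.01) was 0.0048 with RLE scaling and with DESeq2 and 0.0126 with no filter. Leaving out 1 library gave, for shMCT-1 within anti-IL6R, -0.10 to 0.0258 for Pvr. For the antibody in scramble cells it gave -0.22 to 0.58 for Cd274, -0.0707 to 0.0203 for Cd47 and -0.0647 to 0.0675 for Nt5e. In shMCT-1 cells it gave -0.46 to 0.38 for Cd274, -0.14 to 0.05 for Cd47, -0.29 to 0.10 for Nt5e, -0.0441 to 0.0281 for Pvr and -0.12 to 0.21 for Lgals9. For the interaction it gave -0.60 to 0.24 for Cd274, -0.0269 to 0.12 for Cd276, -0.11 to 0.0852 for Cd47, -0.28 to 0.11 for Nt5e and -0.21 to 0.12 for Lgals9. For the antibody across backgrounds it gave -0.16 to 0.28 for Cd274, -0.12 to 0.0329 for Nt5e and -0.0121 to 0.14 for Lgals9. Depth kept Cd80 and Pdcd1lg2 out of the fit (0 to 4 counts per library), and among the tested ligands it limits Cd274 most, at 6 to 30 counts.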
